A study of Mus musculus with 6 samples.

Results

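Young LINE-1 (L1) copies of the mouse L1Md type were followed in RNA from E14 embryonic stem cells with and without Dot1l. A copy belonged to them when the deposited table of single transposable element (TE) copies placed it in the family L1 and gave it an element name beginning with L1Md_. The rule took 1032 of the 26255 copies in that table, and it used no measured value. They comprised 490 copies of L1Md_A, 224 of L1Md_T, 228 of L1Md_F2, 75 of L1Md_F3, 12 of L1Md_F and 3 of L1Md_Gf. The same 6 elements have 1 entry each in the table of 938 TE subfamilies, where the reads of all copies are counted together. A copy entered the copy table only with some reads, the lowest mean being 3.61 normalized counts, so copies under that level are not among the 1032.

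The study set 3 samples of Dot1l knock-out (KO) cells, genotype Dot1L-/-, made by CRISPR/Cas9 editing, beside 3 of unedited wild-type (WT) cells. All were grown in serum with LIF on gelatin and are labelled day 14. Neither the number of KO clones nor the separateness of the cultures is given in the sources used here, so the p-values reflect only how these samples vary, which may be technical. Dot1l encodes the enzyme that methylates lysine 79 of histone H3.

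L1 elements are retrotransposons that copy themselves through RNA. A full-length mouse element carries a promoter of repeated monomers at its start, an RNA-binding protein (ORF1p) and an endonuclease with reverse transcriptase (ORF2p). The L1Md names mark promoter types: the A, T and Gf types include elements that still move in the mouse genome, and the F types are older relatives. In embryonic stem cells many factors hold L1 down, among them DNA methylation and histone H3 lysine 9 methylation set by Trim28, Setdb1 and the HUSH complex. The copies are identified by element and running number alone, and their positions, lengths and sequences were not used here.

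The deposited tables hold the authors' comparison, made with DESeq2: a mean over all samples of counts divided by size factors (normalized counts), the log2 fold change, the standard error (SE) of that change, and a p-value. They carry no values per sample, so overlap of single samples and library depth are unknown. No header says which genotype is the numerator. Positive values were taken to mean more RNA in Dot1l KO, since Dot1l is described in the literature as holding down the retrovirus MERVL in such cells. All directions rest on that reading, and they would reverse together under the other one. Dot1l RNA does not settle the matter, with a log2 fold change of -0.16 ± 0.25 (SE), adjusted p = 0.845, according to the authors' deposited table. All 10 stem cell markers were measured, with means from 9235 to 44589, and 0 passed the test. Markers of other cells moved: 8 of 10 of 2-cell-like cells, 4 of 5 of primitive endoderm and 4 of 5 measured fibroblast markers were higher, and 0 passed as lower. Over all genes tested, 5.34% were higher and 1.25% lower. The remaining fibroblast marker, Acta2, had -2.25 ± 0.84 with adjusted p = 0.0926 according to the authors' deposited table. Their part in the L1Md values was not tested.

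No L1Md type passed the test as a whole, with all its copies counted together. At an adjusted p under 0.05, 0 of the 6 L1Md subfamilies were called, and 0 had an unadjusted p under 0.05, where 0.748% of all subfamilies tested were called (7 of 936). The 6 subfamilies had 38070 normalized counts between them, 4.28% of the table's sum. L1Md_A, the most counted, had a mean of 15236 and a log2 fold change of 0.08 ± 0.57 (SE), adjusted p = 0.996, according to the authors' deposited table. Its 95% interval ran from -1.04 to 1.20, which spans 0.487 to 2.30 times the WT level. L1Md_T stood at -0.29 ± 0.53 with a mean of 9702 according to the authors' deposited table, and its interval was -1.34 to 0.75. Changes of about 2-fold in the A type, in either direction, therefore lay within the error.

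The other 4 types had wide intervals too. From the authors' deposited table, L1Md_F2 had -0.22 ± 0.39 at a mean of 9466, L1Md_F3 -0.34 ± 0.48 at 2856 and L1Md_F -0.01 ± 0.43 at 592. L1Md_Gf had the highest fold change, 0.61 ± 0.44 at a mean of 219 according to the authors' deposited table, with the smallest p of the 6 (0.164 unadjusted). The median over the 6 was -0.11, against -0.05 over all subfamilies. In order of fold change the 6 ran from L1Md_Gf through L1Md_A, L1Md_F, L1Md_F2 and L1Md_T to L1Md_F3, and each 95% interval overlapped all the others. Differences between types were not tested, since the types share their libraries and no values per sample were used.

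**Figure D1:**
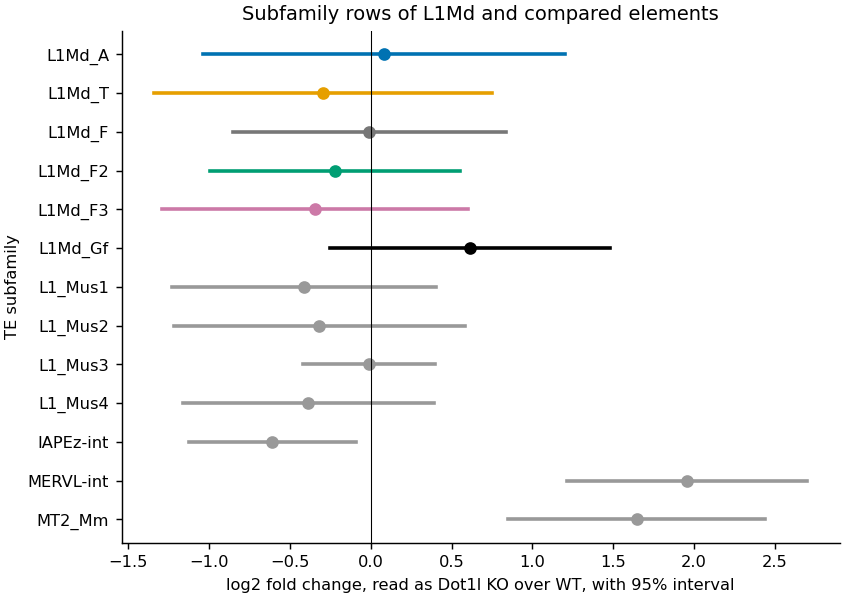
Log2 fold change (dot) with its 95% interval (line) for the 6 L1Md subfamilies, 4 older L1_Mus subfamilies, IAPEz-int, MERVL-int and MT2_Mm. Every L1Md interval includes 0, while those of MERVL-int (1.22 to 2.70) and MT2_Mm (0.85 to 2.44) lie above it.

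Error was wide for elements with this many reads. Among the 201 subfamilies with a mean of at least 500, the median SE was 0.217, and the SE of L1Md_A was the 9th largest and that of L1Md_T the 11th. L1Md_F3 was 17th, L1Md_F 25th and L1Md_F2 35th. Of the older L1_Mus subfamilies, L1_Mus2, at -0.32 ± 0.46 according to the authors' deposited table, was 20th, L1_Mus1 28th and L1_Mus4 34th. L1_Mus3, at -0.01 ± 0.21 according to the authors' deposited table, was 108th. The retrovirus MERVL-int had an SE of 0.38 and was called all the same, at 1.96 with adjusted p = 0.000107, according to the authors' deposited table. Which samples carry the spread of the L1Md types is not seen in these tables.

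Among single copies, few passed the test. Of the 1025 L1Md copies with a p-value, 5 rose and 3 fell at an adjusted p under 0.05, which is 0.780% against 1.11% over all copies. For rises the background was 0.878% of all copies and for falls 0.229%. Of the 290 copies called in the table, 180 belonged to the family ERVL, which includes MERVL. Outside ERVL 0.439% of the copies were called, and 0.203% were called as rises. Without adjustment, 35 L1Md copies were higher and 26 lower (3.41% and 2.54%), beside 2.88% higher and 1.82% lower over all copies. Both shares lay near those of all copies, ERVL included. All 5 rises and 2 of the 3 falls were copies of the F2 and F3 types, which supplied 228 and 75 of the 1032 copies. Rises were 2 of 226 tested L1Md_F2 copies and 3 of 74 tested L1Md_F3 copies. Beside them stood 0.878% of all copies and 0.203% of the copies outside ERVL. In either direction 1.77% of L1Md_F2 and 4.05% of L1Md_F3 copies were called, beside 1.11% over all copies.

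The smallest p of an L1Md copy belonged to L1Md_F3_dup5641, which rose together with an L1Md_F3 copy of a near number. Group means were implied from the mean and the fold change, taking equal group sizes. L1Md_F3_dup5641 had an implied level of 60.5 normalized counts in Dot1l KO and 1.42 in WT, and the authors' deposited table gives it a log2 fold change of 5.41 ± 1.03 with adjusted p = 0.000239. L1Md_F3_dup5635 had 52.6 in Dot1l KO and 0.842 in WT, with 5.97 ± 1.38 and adjusted p = 0.00349 according to the authors' deposited table. Both were thus close to silent in WT and moderately covered in KO. Their numbers differ by 6 and no L1Md_F3 number between them is in the table. Whether they neighbour each other in the genome was not tested.

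Another L1Md_F3 copy and a pair of L1Md_F2 copies rose from a handful of reads. L1Md_F3_dup218 went from an implied 0.604 in WT to 20.6 in Dot1l KO, with 5.09 ± 1.37 and adjusted p = 0.0231 according to the authors' deposited table. L1Md_F2_dup27185 went from 0.365 to 15.0, with 5.36 ± 1.51 and adjusted p = 0.0394 according to the authors' deposited table. For L1Md_F2_dup23009 the implied WT level was that of no reads. With the WT group put at 3 reads in all as a floor, or 1 normalized count per library, it was 12.6-fold higher in KO. Its adjusted p was 0.0256 according to the authors' deposited table. This bound, like the others against the floor, leaves out the error of the KO level and is no lower confidence limit. The 95% interval of L1Md_F2_dup23009 on the log2 scale began at 2.84. In the other 4 copies that rose the implied WT level was at most 1.42 normalized counts per library, so these folds rest on very few WT reads.

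By mean over all samples, the falls of L1Md_F2_dup61814 (90.9) and L1Md_F2_dup61815 (50.8) were better covered than any rise. The fall of L1Md_A_dup16434 (20.7) was not. L1Md_F2_dup61814 had an implied 174 normalized counts in WT and 7.67 in Dot1l KO, and fell by 4.50 ± 0.97 on the log2 scale, adjusted p = 0.00107, according to the authors' deposited table. L1Md_F2_dup61815, the next number, had 97.1 in WT and 4.41 in Dot1l KO, and fell by 4.46 ± 1.10, adjusted p = 0.00790, according to the authors' deposited table. The pair kept close to the same ratio of levels in both genotypes. L1Md_A_dup16434 had 39.8 in WT and 1.53 in Dot1l KO, at -4.70 ± 1.36 and adjusted p = 0.0496 according to the authors' deposited table. Its p was the largest of all copies called, and the call was lost after centring within bins of mean count. The next number, L1Md_A_dup16433, had -1.63 ± 1.09 and adjusted p = 1.00 according to the authors' deposited table.

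**Figure D2:**
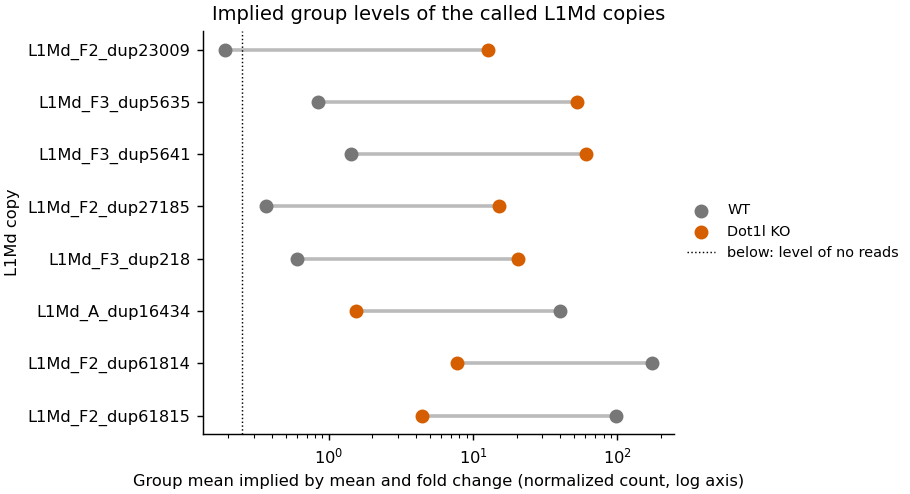
Group means (normalized counts, log axis) implied for WT (grey) and Dot1l KO (orange) in the 8 L1Md copies that passed the test; the dotted line marks 0.25, below which a level was taken as no reads. The 5 copies that rose lie at or below 1.42 in WT, and the 3 that fell lie between 39.8 and 174 in WT. Folds of this size set the WT level low for a rise and high for a fall.

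Just outside the threshold, at an adjusted p from 0.05 to 0.1, stood 4 copies, all with positive values. L1Md_F2_dup6794 at 4.75 ± 1.44, L1Md_F2_dup7463 at 5.24 ± 1.59 and L1Md_A_dup12918 at 3.54 ± 1.09 according to the authors' deposited table had adjusted p from 0.0757 to 0.0884. L1Md_F2_dup40298 was 10.4-fold higher against the same floor, with adjusted p = 0.0591 according to the authors' deposited table. The threshold was hard to reach with these errors. At the median SE of L1Md copies, 1.11, a log2 fold change of 3.83 was needed, and at the smallest SE, 0.63, one of 2.18. Even the narrowest 95% interval of an L1Md copy reached 1.23 to either side of its value.

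The most counted copy with a p-value did not pass in any L1Md type, and the highest mean of a called L1Md copy was 90.9. Levels are counts per copy and not per length. L1Md_A_dup5525 had an implied 296 in WT and 195 in Dot1l KO, with -0.61 ± 0.79 according to the authors' deposited table. L1Md_T_dup3326 had 122 in WT and 183 in Dot1l KO, with 0.59 ± 0.74 according to the authors' deposited table. L1Md_F3_dup5883 had 512 in WT and 208 in Dot1l KO, at -1.30 ± 0.92, and L1Md_F_dup3731 had 122 and 112, at -0.12 ± 0.77, according to the authors' deposited table. All 4 had an adjusted p of 1.00. The 10 most counted copies made up 15.0% of the counts of L1Md copies, 572 copies had a mean under 10, and 70 had a mean of at least 50, of which 2 were called.

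A further 7 L1Md copies have no p-value. DESeq2 by default withholds p where the count of a single sample is extreme, and the tables do not say whether that was the reason here. L1Md_F2_dup51688, with the highest mean of all L1Md copies (436), is among them at -0.28 ± 1.07 according to the authors' deposited table. L1Md_A_dup15948 had an implied 352 in WT and 2.30 in Dot1l KO, with -7.26 ± 3.76, and L1Md_T_dup13163 had 167 and 0.864, with -7.59 ± 3.82, according to the authors' deposited table. These 7 stay in the medians, weighted means and sums below, and log2 ratios of sums are given with and without copies lacking a p.

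**Figure D3:**
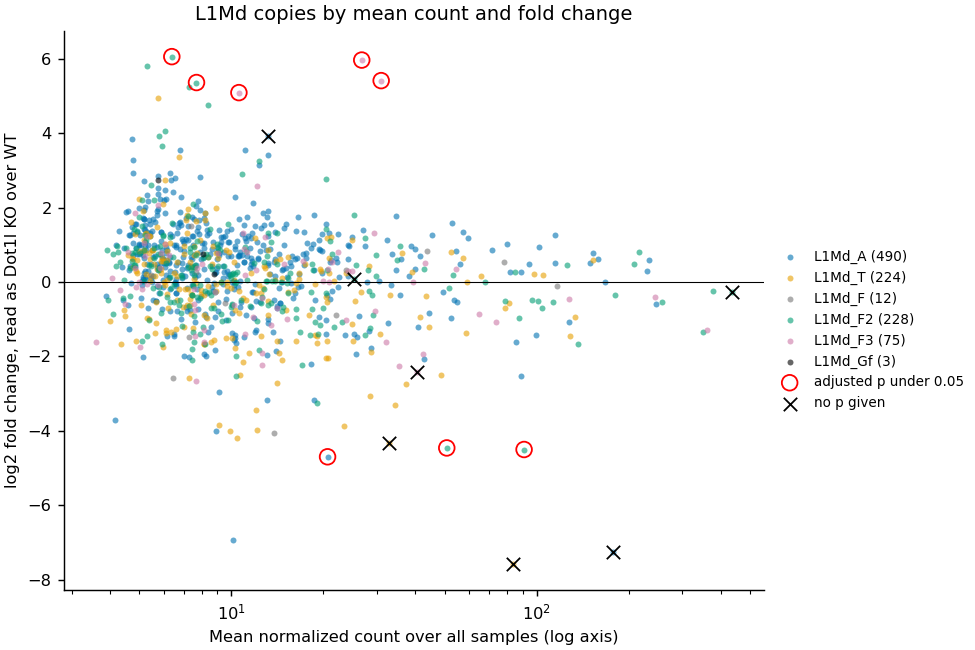
Each point is 1 L1Md copy, by its mean normalized count over all samples (log axis) and its log2 fold change, coloured by element; red circles mark the 8 copies called and crosses the 7 without a p. The 5 called rises lie at means from 6.39 to 31.0.

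Although few copies passed, the L1Md_A copies leaned towards Dot1l KO. Their median log2 fold change was 0.61, with an interquartile range from -0.11 to 1.22, and 351 of 490 (71.6%) were positive. Over all copies of the table the median was 0.02 and 50.9% were positive. The other types lay nearer to all copies: the median was 0.12 in L1Md_F2 (55.3% positive), 0.04 in L1Md_F, 0.01 in L1Md_F3 (50.7%) and -0.03 in L1Md_T (48.2%). The 3 L1Md_Gf copies were all positive, L1Md_Gf_dup1060 at 2.74 ± 1.40, L1Md_Gf_dup323 at 0.75 ± 1.02 and L1Md_Gf_dup846 at 0.23 ± 0.98 according to the authors' deposited table, and 0 passed. Over all 1032 copies the median was 0.32 and 632 were positive.

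At an unadjusted p under 0.05, L1Md_A had 15 higher and 7 lower, or 3.07% and 1.43% of its tested copies, which is near the 2.88% and 1.82% of all copies. L1Md_F2 had 13 and 5 (5.75% and 2.21%), L1Md_F3 4 and 3 (5.41% and 4.05%), and L1Md_T 3 and 9 (1.35% and 4.05%). L1Md_F had 0 higher and 2 lower among 12. The smallest p values of L1Md_T and L1Md_F belonged to negative values: L1Md_T_dup19472 had -2.74 ± 0.93 with adjusted p = 0.181, and L1Md_F_dup639 had -4.07 ± 1.36 with adjusted p = 0.172, according to the authors' deposited table. Copies of a type share sequence and all share the same 6 libraries, so they are not replicates. These counts and medians are a description, and the difference between L1Md_A and L1Md_T was not tested.

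**Figure D4:**
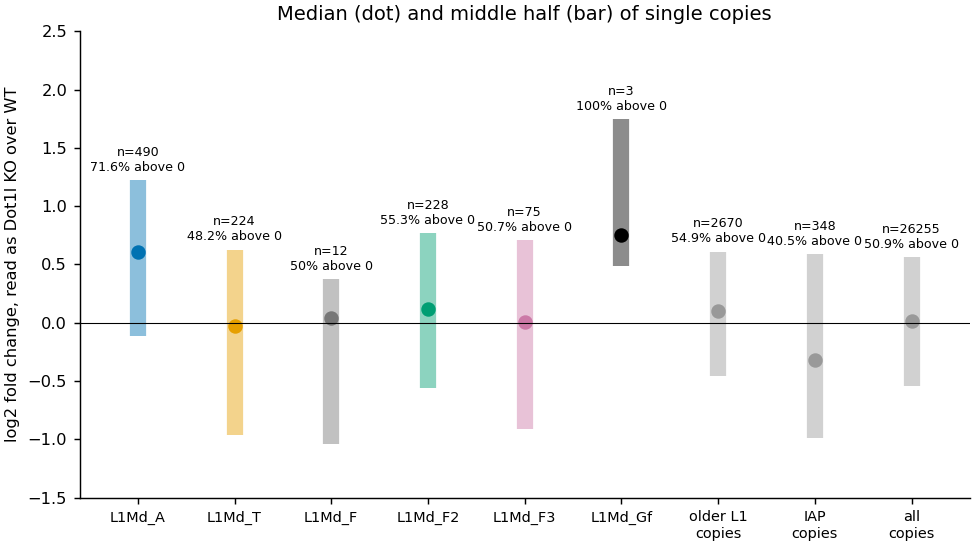
Median log2 fold change (dot) and interquartile range (bar) of single copies for the 6 L1Md elements, older L1 copies, IAP copies and all copies, with the number of copies and the share above 0. L1Md_A sits at 0.61, above the 0.02 of all copies, and L1Md_T at -0.03.

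Of the 98 elements with at least 50 copies in the table, L1Md_A had the 4th highest median. Above it stood MERVL-int (4.08, or 3.71 with groups without reads at their bound), MT2_Mm (2.09) and the satellite MMSAT4 (0.62), and below it MurSatRep1 (0.58). L1Md_F2 was 25th, L1Md_F3 47th and L1Md_T 61st. The 2670 older L1 copies had a median of 0.10 with 54.9% positive, 5 rises and 5 falls (0.375% called). Among their elements with at least 50 copies the medians ran from -0.10 in Lx to 0.32 in L1M4, with L1M2 at 0.30 and L1_Mur3 at 0.26. The IAP copies, of another young retrotransposon family, had a median of -0.32 over 348 copies with 40.5% positive, or -0.19 with centring within bins of mean count.

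The lean of L1Md_A was found across the range of mean counts, and was least for means of 20 to 50. Weakly covered copies had higher medians throughout the table, so each class was set beside all copies of that class. The L1Md_A median was 0.92 against 0.15 for means under 6 (109 copies), 0.60 against 0.02 for 6 to 10, and 0.54 against -0.03 for 10 to 20. It was 0.16 against -0.11 for 20 to 50 (49 copies, 27 of them positive). For means of at least 50 it was 0.48 against -0.31 (28 copies, 19 of them positive). L1Md_T had 0.57 in the lowest class and -0.53 for means of 20 to 50, where 10 of 31 copies were positive, but 0.01 in its top class, with 7 of 13 positive. L1Md_F2 went from 0.76 in the lowest class to -0.49 in the top class, where 5 of 21 were positive. Over all L1Md copies the median was 0.72 for means under 6 and -0.14 at 50 or more.

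**Figure D5:**
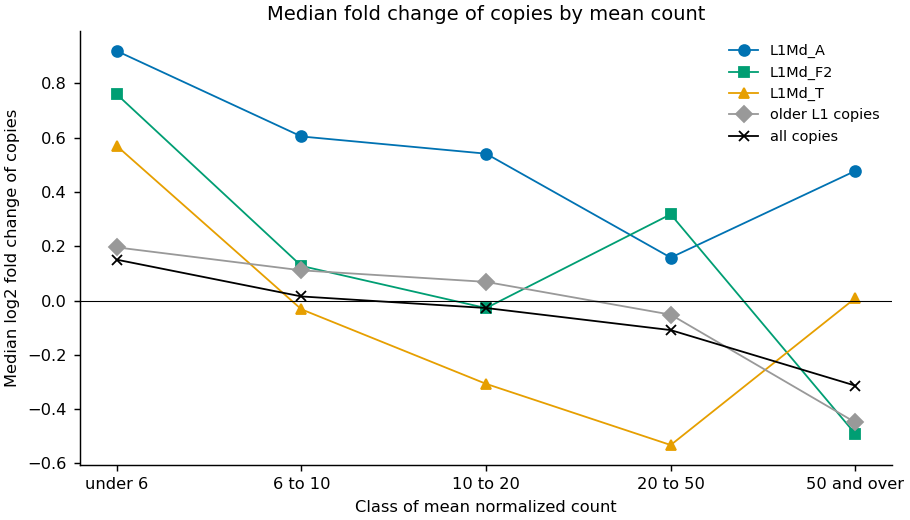
Median log2 fold change of copies in 5 classes of mean normalized count for L1Md_A, L1Md_F2, L1Md_T, older L1 copies and all copies. L1Md_A lies above all copies in each class, from 0.92 against 0.15 to 0.48 against -0.31.

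Summed over copies, the L1Md_A lean was smaller. The implied levels of the 490 copies added up to 8790 normalized counts in Dot1l KO and 7663 in WT, a log2 ratio of 0.20, or 0.26 over the copies with a p. For L1Md_T the sums were 3098 and 4144, a log2 ratio of -0.42, or -0.34 over the copies with a p. L1Md_F3 had -0.40, L1Md_F2 -0.23 and L1Md_F 0.00, beside -0.24 over all copies. Over the copies with a p, L1Md_F3 had -0.37, L1Md_F2 -0.22 and L1Md_F 0.00, beside -0.20 over all copies. The sign for L1Md_A was that of its subfamily entry, 0.08 ± 0.57 according to the authors' deposited table, whose error covers both the median and the sum ratio. Copy means added up to 54.0% of the subfamily mean in L1Md_A, 37.3% in L1Md_T, 58.2% in L1Md_F2, 66.0% in L1Md_F3, 57.8% in L1Md_F and 10.3% in L1Md_Gf. These shares set 2 tables side by side whose size factors may differ, and how reads that map to several copies were counted is not stated. L1Md_A_dup4174 and L1Md_A_dup7552 had identical values (mean 14.4, -0.57 ± 1.10) according to the authors' deposited table. Whether copies share reads was not tested, so medians, sums and counts of copies may hold the same signal more than once.

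Genes listed as acting on L1, called genes that act on L1 here, were taken from 6 lists by role. Of 126 genes, 123 were in the gene table, and 22 were higher and 2 lower, beside 5.34% of all genes higher and 1.25% lower. Of those rises, 17 came from 1 list, that of the piRNA pathway and related germline control. Elsewhere rises were 2 of 11 for DNA methylation, 3 of 14 for promoter factors, and 0 for chromatin, restriction and RNA partner genes. The pooled share of rises thus rested mostly on a list drawn up with germline rises known. Among silencing factors, 0 of 33 tested chromatin genes rose and 1 fell. Their median log2 fold change was 0.02 against -0.02 over all genes, with a range from -0.93 to 0.52. The gene that fell was Chaf1b (chromosome 16, 93883901 to 93906115 in mm10), a subunit of the CAF-1 histone chaperone, at -0.93 ± 0.26 with adjusted p = 0.0105 according to the authors' deposited table; its call was lost after centring within bins of mean count. L3mbtl2 (chromosome 15, 81663889 to 81688315), of a polycomb complex, had -0.60 ± 0.29 and adjusted p = 0.270 according to the authors' deposited table. From the authors' deposited table, Trim28 had -0.08 ± 0.35, Setdb1 -0.13 ± 0.25 and the HUSH genes Fam208a 0.23 ± 0.53, Mphosph8 0.17 ± 0.32 and Pphln1 0.11 ± 0.27, none of which passed.

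Of 11 genes of DNA methylation and its removal, 2 rose and 0 fell, beside 5.34% of all genes higher and 1.25% lower. The median of the 11 was 0.01. The 2 that rose act in opposite directions on the mark. Dnmt3a (chromosome 12, 3806007 to 3914443), a de novo methyltransferase, was at 0.85 ± 0.24 with adjusted p = 0.00822 according to the authors' deposited table. Tet3 (chromosome 6, 83362373 to 83459084), which oxidises methylcytosine, was at 1.18 ± 0.34 with adjusted p = 0.0139 according to the authors' deposited table. Dnmt3c, the rodent enzyme that methylates young retrotransposons in male germ cells, had 1.26 ± 0.85 at a mean of only 12.9, and Dnmt1 and Uhrf1, which maintain methylation, had -0.03 ± 0.25 and -0.11 ± 0.27, according to the authors' deposited table. These 3 did not pass.

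The germline list, whose members make piRNAs or silence retrotransposons in germ cells, had 17 rises and 0 falls among 24 tested. Its median was 1.70, and over all genes 5.34% were higher and 1.25% lower. Germline genes were known to be higher in these data when the list was drawn up, so its direction is not independent evidence. Fkbp6 (chromosome 5, 135291704 to 135350044), a cofactor of piRNA loading, rose by 4.55 ± 0.36 with adjusted p = 1.40e-32 according to the authors' deposited table. Mael (chromosome 1, 166201201 to 166238747), needed for L1 repression in the male germ line, rose by 2.99 ± 0.42 according to the authors' deposited table. The Piwi proteins, which bind piRNAs, all passed: Piwil1 at 2.58 ± 0.46, Piwil2 at 1.71 ± 0.45 and Piwil4 at 1.04 ± 0.27 according to the authors' deposited table. Asz1 (chromosome 6, 18050964 to 18109061), a mitochondrial surface protein of the pathway, was without WT reads by its implied level. Against the floor Asz1 was 83.1-fold higher, with adjusted p = 2.06e-08 according to the authors' deposited table.

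The other members of the list that passed had log2 fold changes between 1.20 and 3.34 according to the authors' deposited table. The RNA helicases Mov10l1 and Ddx4 were at 2.39 ± 0.41 and 1.60 ± 0.37, and Tex15, a nuclear factor of piRNA silencing, at 1.87 ± 0.41, according to the authors' deposited table. The Tudor domain genes Tdrkh (1.85 ± 0.26), Tdrd9 (2.08 ± 0.49), Tdrd1 (1.81 ± 0.50) and Tdrd5 (1.29 ± 0.39) passed according to the authors' deposited table. So did Henmt1 (3.34 ± 0.93), which methylates the ends of piRNAs, Gtsf1 (2.28 ± 0.48), Tex19.2 (1.58 ± 0.45) and Tex19.1 (1.20 ± 0.39), according to the authors' deposited table. Over these 17 genes the highest adjusted p was 0.0372, that of Tex19.1 according to the authors' deposited table.

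Restriction factors that act on L1 RNA or cDNA had 0 rises and 1 fall among 19 tested. Over all genes 5.34% were higher and 1.25% lower. The median of the restriction factors was -0.15, against -0.02 over all genes. Mov10 (chromosome 3, 104794836 to 104818563), a helicase that restrains L1 movement, fell by 1.32 ± 0.28 with adjusted p = 0.000213 according to the authors' deposited table, from an implied 9501 to 3810 normalized counts. Rnaseh2b (chromosome 14, 62292589 to 62372992), a subunit of the nuclease that removes RNA from DNA hybrids, had -0.89 ± 0.32 and adjusted p = 0.0726 according to the authors' deposited table. Among partners of L1 RNA in stem cells, such as nucleolin and the m6A reader Ythdc1, 0 of 22 passed in either direction by the authors' DESeq2 test, and 0 had an unadjusted p under 0.05. The smallest p values there were those of Mbd3 (-0.69 ± 0.43) and Top1 (0.53 ± 0.34) according to the authors' deposited table.

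Of 14 tested genes listed as L1 promoter factors, 3 rose and 0 fell, beside 5.34% of all genes higher and 1.25% lower. Their median was 0.12. Whether the listed genes, the 2-cell gene Duxf3 among them, act at L1 promoters in these cells was not tested. Duxf3 (chromosome 10, 58229979 to 58232675), a gene for the 2-cell factor Dux with near-identical copies, was 20.3-fold higher against the floor. Its adjusted p was 0.000216 according to the authors' deposited table. Runx1 (chromosome 16, 92601466 to 92826149) was at 2.02 ± 0.53 and Sox17 (chromosome 1, 4490931 to 4497354) at 3.19 ± 1.05 according to the authors' deposited table, with means of 36.0 and 24.0. The call of Sox17, and that of Tex19.2 in the germline list, was lost after centring within bins of mean count. Sox17 is also one of the primitive endoderm markers that were higher, and Duxf3 belongs to the 2-cell program. Yy1, which binds the L1 promoter and sets its start site in the human element, had 0.07 ± 0.26 according to the authors' deposited table and did not pass.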

How the data were processed

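RNA of 3 Dot1l KO and 3 WT samples was sequenced. HISAT2 2.1.0, the build mm10, featureCounts 2.0.0 and DESeq2 are named in the submitters' processing notes; settings for strand, reads that map to several places, filters and design were not given in the sources used here. Per the file headers, the authors deposited a mean signal (counts over size factors, all samples), a log2 fold change with SE, a Wald score and a p-value, raw and Benjamini-Hochberg adjusted, across all copies, subfamilies and genes. The score equalled the fold change over its SE, and recomputing the adjustment gave the same values. There are no values per sample, so depth is unknown and no counting interval or refit was made. Python 3.11.15 with pandas 2.3.3 and scipy 1.17.1 gave counts, medians, 95% intervals and implied group means. A level under 0.25 was taken as no reads, since the lowest levels form steps. Simulated fold changes with the errors of the copies and genes were used to test adjustment, calling and centring within bins. The level of 0.25, the floor and the implied group means were not tested that way.

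The members, lists and rules were chosen with earlier results of these data known. Named were all L1Md subfamilies, up to 8 rises and 8 falls among called copies, for each element the copies with the smallest p and the highest mean, and, for each gene list, the genes called and those with the 2 smallest p. Copies without a p or just outside the threshold, near numbers and further genes were added after their values were seen. Gene coordinates are from GENCODE M21 (GRCm38). Alternatives were Bonferroni adjustment, a threshold of 0.01, a mean of at least 50, a minimum log2 fold change of 1, and fold changes centred on the median of the table or of 20 bins of mean count.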

Additional observations from a re-analysis of the deposited data

How the results depend on the processing

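No paired analysis was possible because the tables hold no values per sample; leaving out single replicates could not be run for the same reason. Rises among L1Md copies numbered 5 as reported, 2 at a threshold of 0.01 (0 in L1Md_F2), 1 with Bonferroni adjustment (0 in L1Md_F2, 1 in L1Md_F3) and 0 at a mean of at least 50 (0 in both types). A mean of at least 50 leaves out these 5 rises and the L1Md_A fall whatever their p, since their means were at most 31.0. L1Md_F2_dup23009, L1Md_F2_dup27185 and L1Md_F3_dup218 were the rises lost at 0.01. Falls numbered 3, and 0 with Bonferroni adjustment (0 in L1Md_A and 0 in L1Md_F2); the L1Md_A fall went to 0 also at 0.01, at a mean of at least 50 and with centring within bins. Centring on the table's median, and a log2 fold change of at least 1, left the calls of all 8 copies, and subfamilies had 0 calls under each of the 6 alternatives. Genes that act on L1 went from 22 to 7 higher and from 2 to 0 lower with Bonferroni adjustment, and to 1 lower at 0.01, at a log2 fold change of at least 1 and with centring within bins. At a mean of at least 50 the median log2 fold change was -0.14 over L1Md copies, 0.48 in L1Md_A (28 copies), 0.01 in L1Md_T (13), 0.21 in L1Md_F (2), -0.49 in L1Md_F2 (21) and -0.66 in L1Md_F3 (6); no L1Md_Gf copy reached that mean. A mean weighted by mean count gave -0.18 over L1Md copies, 0.11 in L1Md_A, -0.62 in L1Md_T, -0.065 in L1Md_F, -0.26 in L1Md_F2, -0.35 in L1Md_F3 and 1.06 in L1Md_Gf; this weighting follows the most counted copies, and the cause of each shift was not tested. Centring within bins (0.59 in L1Md_A) and setting groups without reads at their bound, both chosen after seeing the data, moved no median of the L1Md copies or types by over 0.1; the bound took MERVL-int from 4.08 to 3.71, and centring took IAP copies from -0.32 to -0.19.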
